A study of Mus musculus with 12 samples.

Results

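Htt, the gene for huntingtin, and 7 genes that flank it on mouse chromosome 5 (Add1, Mfsd10, Nop14, Grk4, Msantd1, Rgs12 and Lrpap1) were followed through 12 RNA sequencing libraries in which Htt itself was the target of Cre recombinase. The 8 genes were taken by symbol out of 55487 genes counted in each library, and all are reported whatever their values. The list was chosen with earlier results of these data known. All 8 were found, and each is annotated as protein-coding. The study set out to compare the RNA of cells with and without huntingtin, and the part of that RNA that travels with ribosomes.

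Primary fibroblasts were grown from mouse embryos at E13.5. Every culture, controls included, was homozygous for a floxed Htt allele (HTTfl/fl), so the groups share that allele and differ in the virus. HTT-deleted cells received a lentivirus encoding Cre and GFP (LV-Cre-GFP), and control cells a lentivirus encoding a histone H2B-eGFP fusion (H2B-eGFP). Cells were harvested 7 days after transduction. From each suspension, part was kept for total RNA and ribosomes were pelleted from the rest, which gave ribosome-associated RNA. Each of the 4 groups (total control, total HTT-deleted, ribosome control and ribosome HTT-deleted) has 3 libraries. A replicate is a separate primary culture or a separate passage, per the labels, so each p-value rests on the spread between them. The sources used here do not give the exons flanked by loxP sites or the share of cells that took up each virus.

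Huntingtin is a large scaffold protein with roles in vesicle transport, endocytosis, autophagy and cilia, and expansion of its glutamine tract causes Huntington disease. It is made in nearly all cell types, fibroblasts among them. Cre recombines DNA at loxP sites and removes the segment between them, so the rest of the locus and its neighbours stay on the chromosome. Transcription of one gene can bear on the next, and the region places genes of unrelated function side by side. Add1 encodes adducin 1, which caps actin filaments and ties them to spectrin under the plasma membrane. Mfsd10 encodes a membrane transporter of the major facilitator family. Nop14 encodes a nucleolar protein needed to process the RNA of the small ribosomal subunit. Grk4 is a kinase of G protein-coupled receptors, and Rgs12 speeds the GTPase of G protein alpha subunits, so both dampen receptor signalling. Lrpap1 is an endoplasmic reticulum chaperone for receptors of the LDL receptor family. Msantd1 encodes a protein with a Myb/SANT-like domain of little studied function.

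On the GRCm38 build, Htt (ENSMUSG00000029104) spans chr5:34761740-34912534 on the plus strand, with 67 exons in its longest coding transcript. Before it, in order, come Add1 (chr5:34573664-34632308, plus), Mfsd10 (chr5:34633642-34637212, minus), Nop14 (chr5:34638536-34660148, minus) and Grk4 (chr5:34660379-34755305, plus). The gap between Grk4 and Htt is 6434 bp. After Htt come Msantd1 (chr5:34908012-34923839, plus), Rgs12 (chr5:34949445-35039644, plus, 36910 bp away) and Lrpap1 (chr5:35091501-35105766, minus, 178966 bp away). The gene models of Msantd1 and Htt overlap by 4523 bp on the same strand, but their exons overlap by 0 bp. Only Msantd1-202, a transcript annotated without a coding frame, reaches into Htt: its first exon (chr5:34908012-34908107) lies in the last Htt intron, between exon 66, which ends at 34907593, and exon 67 (chr5:34908632-34912534). The other Msantd1 transcripts start after the end of Htt, and the RefSeq model of Msantd1 begins 2059 bp past it.

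The DNA just before the start sites is shown for 3 of these genes: Htt and Msantd1, because both were low in HTT-deleted cells, and Grk4, because it starts head to head with Nop14. Each is the 250 bases before the start site on the gene's own strand, from RefSeq on GRCm38.p6, at chr5:34761490-34761739 (plus) for Htt, chr5:34915665-34915914 (plus) for the Msantd1 transcript that starts at 34915915, and chr5:34660129-34660378 (plus) for Grk4. The RefSeq gene models begin before these start sites, at 34761721 for Htt, 34914593 for Msantd1 and 34660250 for Grk4. The whole Msantd1 stretch and the ends of the Htt and Grk4 stretches thus lie inside their gene models. Capitals mark matches to the GC box (GGGCGG, or CCGCCC on the other strand) and the cAMP response element (TGACGTCA).
Htt: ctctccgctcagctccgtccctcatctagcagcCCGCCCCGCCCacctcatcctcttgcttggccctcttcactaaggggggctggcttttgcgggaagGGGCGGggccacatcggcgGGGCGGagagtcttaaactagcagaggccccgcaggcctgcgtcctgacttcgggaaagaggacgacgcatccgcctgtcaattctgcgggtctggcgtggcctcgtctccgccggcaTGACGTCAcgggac
Msantd1: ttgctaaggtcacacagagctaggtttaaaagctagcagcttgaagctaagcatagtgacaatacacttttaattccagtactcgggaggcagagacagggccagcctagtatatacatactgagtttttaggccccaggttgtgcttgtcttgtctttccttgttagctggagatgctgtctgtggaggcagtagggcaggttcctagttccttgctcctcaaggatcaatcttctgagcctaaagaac
Grk4: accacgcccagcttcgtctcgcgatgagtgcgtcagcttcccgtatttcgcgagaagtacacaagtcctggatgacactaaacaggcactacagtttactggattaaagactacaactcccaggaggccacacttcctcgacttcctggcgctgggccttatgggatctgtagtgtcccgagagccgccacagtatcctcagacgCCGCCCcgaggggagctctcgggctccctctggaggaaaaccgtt
The Htt stretch is 66.4% G or C, holds 22 CG dinucleotides, 4 GC boxes, of which the first pair overlap by 1 base, and 1 cAMP response element next to the start site. In the Msantd1 stretch G and C make up 46.4%, there is 1 CG dinucleotide, and none of these motifs was found, nor a CCAAT box (CCAAT or ATTGG) or TATAAA or its reverse TTTATA. Over 32817 such stretches in the RefSeq table the medians were 52.4% and 6 CG dinucleotides. A GC box was in 32.7% of them, a CCAAT box in 33.8%, TATAAA or TTTATA in 12.4% and the cAMP response element in 1.5%. The Grk4 stretch is 57.2% G or C with 17 CG dinucleotides and 1 GC box. It shares 230 bp with that of Nop14, whose start site lies 231 bp away on the opposite strand. These matches describe letters, not bound factors.

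Gene counts summed to 16789356 to 30571501 per library. Levels are CPM, each library's counts scaled to a common total with TMM factors. All 10 fibroblast markers were at 1 CPM or more, and summed to 24000 to 41340 CPM. All 16 macrophage markers were too, and their sum was 791 to 3252 CPM in total control, 1816 to 7514 in total HTT-deleted, 1194 to 4916 in ribosome control and 2802 to 8474 in ribosome HTT-deleted libraries. Their part in the results was not tested. Total HTT-deleted replicate 1 stood apart from the other total libraries. Across 10777 genes, its deviation from them correlated negatively with transcript length (Spearman -0.628, against 0.245 to 0.452 in the others), and ribosome control replicate 1 leaned the same way (-0.542). Log2 fold changes without these libraries are given in the comparisons they enter.

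Per kilobase of the longest coding transcript, the 8 genes spanned a wide range of levels in total control RNA. Add1 was at 60.2 ± 2.32 CPM per kb (SD, n = 3, as for all levels here) and Lrpap1 at 52.4 ± 4.67. Mfsd10 followed at 27.2 ± 0.169, Nop14 at 18.7 ± 0.334 and Rgs12 at 7.75 ± 0.704 CPM per kb. Htt was the sixth, at 4.27 ± 0.73 CPM per kb, above Grk4 at 2.00 ± 0.0729 and Msantd1 at 0.575 ± 0.0678. Dividing by all annotated exon sequence instead put Lrpap1 (37.9) above Add1 (32.0) and Nop14 (18.5) above Mfsd10 (18.0), so the order within these pairs depends on the length used. In HTT-deleted total RNA, Htt lay below Grk4, at 0.93 ± 0.213 against 1.96 ± 0.281 CPM per kb. In ribosome control RNA Htt (1.88 ± 0.474) and Grk4 (1.48 ± 0.104) lay within their spread of each other, and in ribosome HTT-deleted RNA the same was true of Grk4 (1.12 ± 0.271) and Htt (0.551 ± 0.365).

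**Figure D1:**
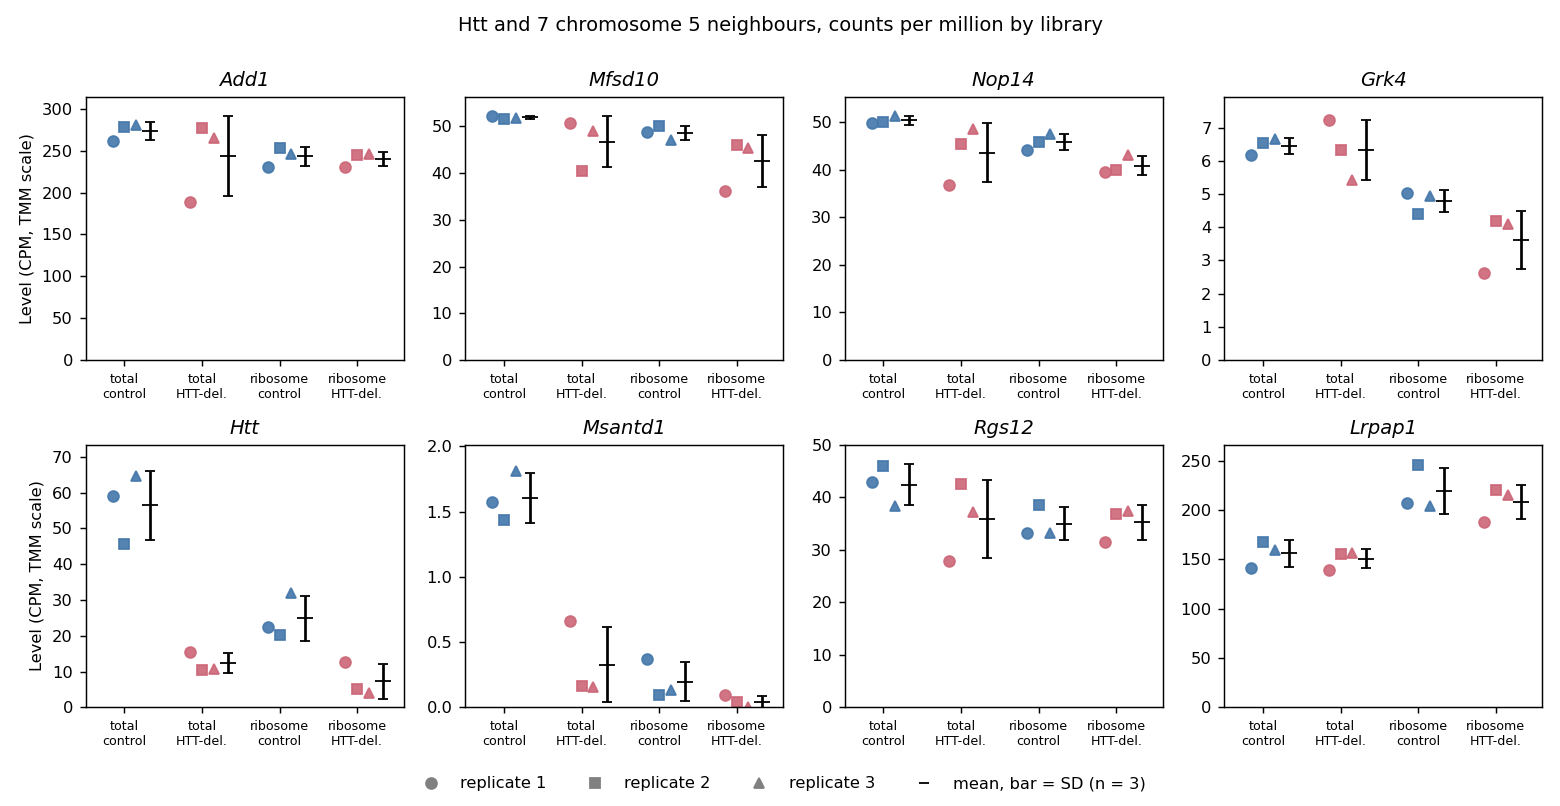
Level of each of the 8 genes in every library, in CPM on the TMM scale, each panel with its own axis from 0. Symbols are replicates, and the black bar is the mean ± SD (n = 3). Htt and Msantd1 are low in the HTT-deleted total libraries, while the other genes keep 75.8 to 100.8% of their control mean in both fractions.

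Htt itself was compared first, because it checks the labels. In total RNA, Htt had 58.9, 45.8 and 64.6 CPM in controls and 15.5, 10.6 and 10.7 CPM in HTT-deleted libraries (replicates 1, 2 and 3 here and below). The groups stood well apart, and 21.8% of the control mean was left. In ribosome-associated RNA the values were 22.6, 20.1 and 32.0 CPM in controls and 12.8, 5.04 and 3.98 CPM in HTT-deleted libraries, with 29.2% left. Again no HTT-deleted library reached the lowest control. Set against the control of the same number, the total RNA libraries kept 26.4, 23.1 and 16.6%, and the ribosome-associated ones 56.7, 25.1 and 12.5%. By that measure replicate 1 kept the most Htt in both fractions and replicate 3 the least. In such bulk samples, fewer cells with the transcript and less of it per cell cannot be told apart.

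On the log2 scale Htt differed by -2.16 (SE 0.24, 95% interval -2.73 to -1.59) in total RNA, and by -2.39 (SE 0.17, adjusted p = 0.272 in edgeR's quasi-likelihood test) without HTT-deleted replicate 1. In ribosome-associated RNA it differed by -1.78 (SE 0.47, -2.91 to -0.64). That value was -1.84 (SE 0.55) without control replicate 1 and -2.46 (SE 0.27) without HTT-deleted replicate 1. Neither passed edgeR's quasi-likelihood test after Benjamini-Hochberg adjustment over all genes (adjusted p = 0.812 and 1, unadjusted p = 5.5e-05 and 0.00833). That test called 0.0% of genes in either fraction: 0 of 14759 in total RNA (44 at an unadjusted p under 0.05, and DESeq2 called 3 and limma voom 0) and 0 of 14588 in ribosome-associated RNA (110 unadjusted, DESeq2 1, limma voom 0). In total RNA Htt was lower under all alternatives. It was called, at an adjusted p under 0.05, in 4 of them: DESeq2, no filter on low counts, 2 factors estimated from the residuals, and pairs 2 and 3 alone with the replicate number as a block. Its adjusted p was 7.01e-12 with DESeq2, which called 0.0203% of genes, and 0.0416 in edgeR's quasi-likelihood test with no filter, which called 0.00375%. The same test gave 0.00273 with 2 factors (5.2% of genes called). In pairs 2 and 3 with the block that test gave 5.51e-06, at a log2 fold change of -2.35 (0.629% called), with 1 residual degree of freedom per gene. Over all alternatives its adjusted p ran from 7.01e-12 to 1 in total and from 0.0869 to 1 in ribosome-associated RNA. In the authors' deposited table, which uses factors of unwanted variation, Htt has log2 fold changes of -2.18 (false discovery rate 3.98e-39) and -1.93 (4.48e-07), where 4.97% and 4.21% of genes are under 0.05.

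Msantd1, the gene directly after Htt, was also low in HTT-deleted cells. In total RNA it had 48, 29 and 49 counts in controls and 12, 3 and 3 in HTT-deleted libraries, or 1.57, 1.44 and 1.81 against 0.663, 0.164 and 0.160 CPM. The highest of the HTT-deleted libraries, replicate 1, is the one that stands apart by transcript length, and it still lay below every control. The mean was 20.5% of that in controls. Its log2 fold change was -2.23 (SE 0.60, 95% interval -3.66 to -0.80), with an unadjusted p of 0.0081 and an adjusted p of 0.978 in edgeR's quasi-likelihood test. Without total HTT-deleted replicate 1 it was -3.26 (SE 0.39), and without each other library in turn it was -2.30 to -1.89, in no case called. Pairs 2 and 3 with the block gave -3.27 (adjusted p = 0.0202, edgeR's quasi-likelihood test, 0.629% of genes called), with 1 residual degree of freedom per gene. The fit with 2 factors gave -2.56 (adjusted p = 0.0369, same test, 5.2% called). In those fits Msantd1 was called. The authors' deposited table lists -2.53 (false discovery rate 9.47e-09) in total RNA and no value in ribosome-associated RNA.

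On ribosomes Msantd1 had few reads, with 6, 2 and 4 counts in controls and 2, 1 and 0 in HTT-deleted libraries. The count of 0 allows up to 3 counts, or 0.111 CPM of that library. The filter on low counts kept the gene out of the test there. Summed over libraries, the ratio of control to HTT-deleted was 4.92 (126 against 18 counts, counting interval 2.99 to 8.56) in total RNA and 4.16 (12 against 3 counts, 1.12 to 23.0) in ribosome-associated RNA. These intervals cover counting error only. For Htt the same ratios were 4.64 (4.28 to 5.04) and 3.63 (3.29 to 4.02).

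Msantd1 was also set against Htt within the same libraries, where the depth of the library cancels but a lean by transcript length does not. The longest coding transcript is 13.21 kb for Htt and 2.79 kb for Msantd1. Summed over libraries, Msantd1 counts made 2.82% of Htt counts in total control and 2.66% in total HTT-deleted RNA, but 0.674% and 0.589% in ribosome-associated RNA. Single total control libraries gave 2.67, 3.13 and 2.80%, and HTT-deleted ones 4.27, 1.55 and 1.49%, the latter from 12, 3 and 3 Msantd1 reads. In ribosome control libraries the share was 1.65, 0.457 and 0.409%. The shares of 4.27% and 1.65% belong to total HTT-deleted replicate 1 and ribosome control replicate 1, the libraries that lean to short transcripts. The part of transcript length in these shares was not tested. Whether the Msantd1 reads come from its own start sites or from transcripts that run on from Htt cannot be told apart with counts per gene.

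The 6 other neighbours lay close to their control levels, and none passed the test in either fraction. Their log2 fold changes in total RNA were -0.22 for Rgs12 (95% interval -0.64 to 0.21), -0.18 for Nop14 (-0.50 to 0.14), -0.14 for Add1 (-0.55 to 0.26), -0.12 for Mfsd10 (-0.46 to 0.22), -0.02 for Lrpap1 (-0.33 to 0.29) and 0.01 for Grk4 (-0.51 to 0.52). Their adjusted p in edgeR's quasi-likelihood test (Benjamini-Hochberg) was 0.978 to 0.995. In ribosome-associated RNA they were -0.39 for Grk4 (-0.96 to 0.17), -0.19 for Mfsd10 (-0.45 to 0.07), -0.16 for Nop14 (-0.35 to 0.03), -0.07 for Lrpap1 (-0.33 to 0.19), -0.01 for Add1 (-0.20 to 0.18) and 0.02 for Rgs12 (-0.24 to 0.27), all with an adjusted p of 1. The intervals thus exclude a change as large as that of Htt in total RNA for each of the 6. The median log2 fold change of the 7 neighbours tested was -0.14 in total RNA, against 0.01 over all genes. For the 6 tested in ribosome-associated RNA it was -0.12, against -0.001 over all genes.

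**Figure D2:**
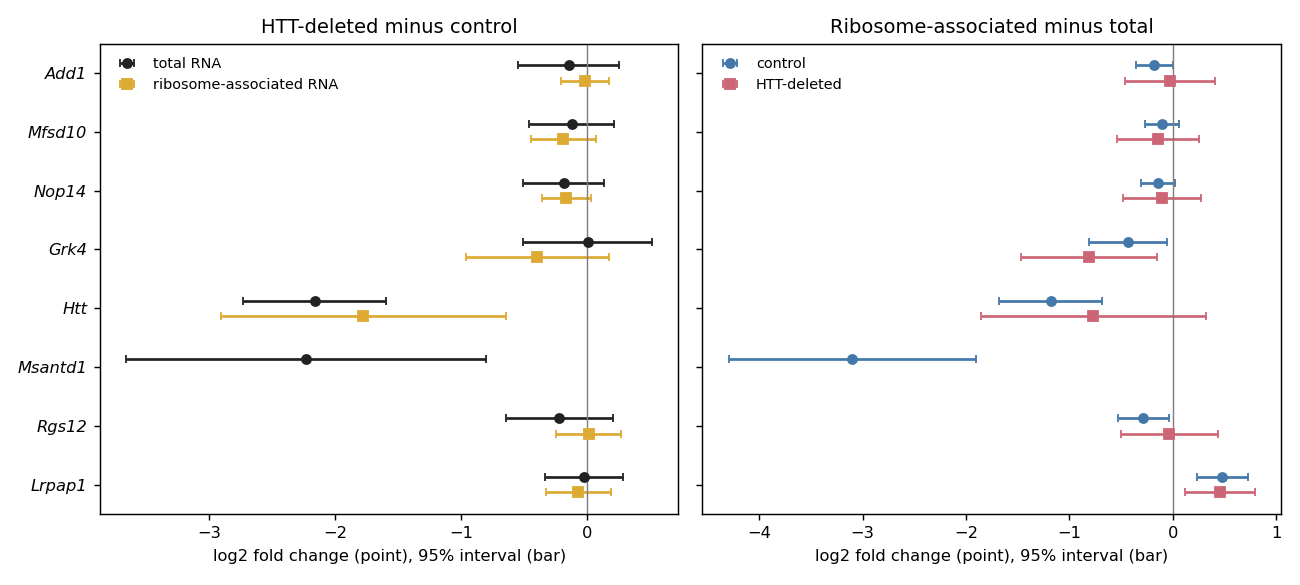
Log2 fold changes of the 8 genes with 95% intervals from edgeR's quasi-likelihood fits, HTT-deleted minus control on the left and ribosome-associated minus total on the right. Htt and Msantd1 lie near -2 in total RNA at left and the other 6 genes between -0.22 and 0.01. In ribosome-associated RNA at left those 6 genes lie between -0.39 and 0.02. Msantd1 has no ribosome-associated or HTT-deleted fraction value because it did not pass the filter on low counts there.

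For some neighbours all 3 HTT-deleted libraries nevertheless lay under all 3 controls. In total RNA this held for 4 of the 8 genes (Htt, Msantd1, Nop14 and Mfsd10), against 2.6% of all genes tested, and 0 of the 8 were higher in the same sense, against 1.61%. In ribosome-associated RNA it held for 4 of the 7 tested (Htt, Nop14, Mfsd10 and Grk4), against 2.82%, and 0 were higher, against 2.63%. Htt, Nop14 and Mfsd10 did so in both fractions, as did 30 of 14174 genes (0.212%). Htt is the deleted gene, so its place in these counts follows from the design. Of the 7 neighbours tested in total RNA, Msantd1, Nop14 and Mfsd10 remain. Of the 6 tested in ribosome-associated RNA, Nop14, Mfsd10 and Grk4 remain. The fractions come from the same cultures and are not separate evidence. Without total HTT-deleted replicate 1, the total RNA log2 fold changes of the 6 genes ran from -0.205 for Mfsd10 to 0.01 for Lrpap1, with Grk4 at -0.12. Without ribosome control replicate 1, those on ribosomes ran from -0.35 for Grk4 to -0.015 for Rgs12, with Nop14 and Mfsd10 at -0.18.

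Nop14, the nucleolar factor, had 49.8, 50.0 and 51.4 CPM in total control and 36.7, 45.5 and 48.6 CPM in total HTT-deleted libraries. On ribosomes it had 44.1, 45.8 and 47.6 CPM in controls and 39.6, 39.9 and 43.1 CPM in HTT-deleted cells. The gaps were narrow next to the spread, and the lowest total value belongs to the library that stands apart. Without total HTT-deleted replicate 1, the total RNA log2 fold change was -0.09 (SE 0.06).

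Mfsd10, the transporter, had 52.3, 51.7 and 51.9 CPM in total control and 50.7, 40.4 and 49.0 CPM in total HTT-deleted libraries. Its ribosome-associated values were 48.8, 50.1 and 47.0 CPM in controls and 36.2, 46.0 and 45.5 CPM in HTT-deleted cells. The low library was replicate 2 in total RNA and replicate 1 on ribosomes, so the same culture was not low in both. Without ribosome HTT-deleted replicate 1, the ribosome-associated log2 fold change was -0.09 (SE 0.09), against -0.19 with it.

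Grk4, whose end lies nearest to the start of Htt, was low throughout. Its total RNA values were 6.19, 6.53 and 6.64 CPM in controls and 7.24, 6.33 and 5.42 CPM in HTT-deleted libraries, which overlap. On ribosomes they were 5.03, 4.40 and 4.94 CPM against 2.62, 4.18 and 4.09 CPM. The ribosome-associated groups did not overlap, though replicate 1 was far below the other HTT-deleted libraries, which lay just under the lowest control. Without ribosome HTT-deleted replicate 1 the log2 fold change went from -0.39 to -0.21 (SE 0.21).

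Add1, which caps actin, had the highest total RNA level of the 8 per kilobase of longest coding transcript, and the second, after Lrpap1, per kilobase of all exon sequence. It had 262, 279 and 281 CPM in total control and 189, 277 and 265 CPM in total HTT-deleted libraries, and its groups on ribosomes were 231, 253 and 246 against 231, 245 and 246 CPM. Both fractions overlap, and only total HTT-deleted replicate 1 was low. Leaving that library out took the total RNA log2 fold change from -0.14 to -0.01 (SE 0.07).

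Rgs12, on the far side of Msantd1, had 42.9, 46.0 and 38.4 CPM in total control and 27.9, 42.5 and 37.2 CPM in total HTT-deleted libraries. The ribosome values were 33.1, 38.6 and 33.2 CPM in controls and 31.4, 36.9 and 37.4 CPM in HTT-deleted cells. Here too replicate 1 of the HTT-deleted total libraries was the low one, and without it the log2 fold change was -0.08 (SE 0.12) in place of -0.22. Lrpap1, the receptor chaperone, had 141, 168 and 159 CPM in total control and 140, 156 and 157 CPM in total HTT-deleted libraries. On ribosomes it had 207, 246 and 204 CPM against 188, 221 and 215 CPM. Both genes' groups overlap in both fractions.

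The neighbourhood was then widened to 64 genes apart from the 8. Of these, 56 lie wholly within 1 Mb of Htt, and 8 were added by name from the region and do not. The tested genes among those added by name lie at gaps of 978.9 to 3347.7 kb, and they enter the counts and medians below. In each fraction 27 of them were tested, 0 were called (against 0.0% of all genes) and 0 had an unadjusted p under 0.05. In total RNA 13 log2 fold changes were above 0 and 14 below, with a median of -0.02, and in ribosome-associated RNA 14 were above and 13 below, with a median of 0.04. The 3 with the smallest p in total RNA were Sh3tc1 (0.90, SE 0.43), Hmx1 (1.01, SE 0.60) and Zfyve28 (-0.59, SE 0.38), at gaps of 784.6, 476.6 and 473.3 kb. In ribosome-associated RNA they were Sh3tc1 (0.74, SE 0.39), Gm1673 (-0.28, SE 0.17) and Nelfa (-0.16, SE 0.11). None of these tested genes had a log2 fold change below -0.59 in either fraction, so the low values of Htt and Msantd1 in total RNA had no counterpart among them. The authors' deposited table lists 31 of these genes per fraction and has 2 above 0 with a false discovery rate under 0.05 in total RNA, Hmx1 (0.93, 0.00813) and Sh3tc1 (0.84, 0.0332). In ribosome-associated RNA the authors' deposited table has 1, Sh3bp2 (0.59, 2.38e-06), and in neither fraction a gene below 0 passes. Of all genes in that table, 844 of 16974 (4.97%) are under 0.05 for total RNA and 683 of 16235 (4.21%) for the ribosome fraction. Whether 2 and 1 of 31 exceed these shares was not tested.

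**Figure D3:**
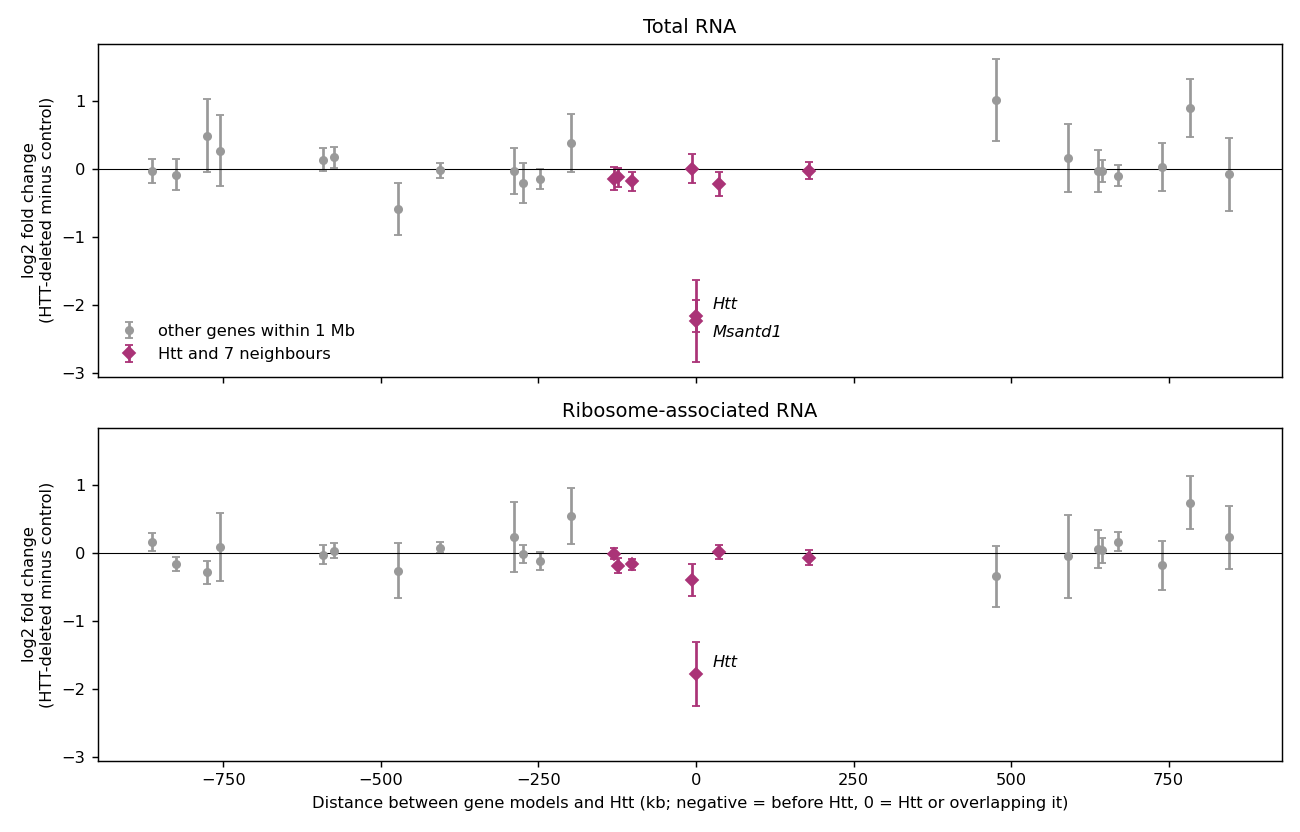
Log2 fold change (HTT-deleted minus control, bars are SE) against the distance in kb between each gene and Htt, in total RNA above and ribosome-associated RNA below. Diamonds are the 8 genes, and grey points are other tested genes within 1 Mb. Htt (-2.16) and Msantd1 (-2.23) stand below all others in total RNA, and Htt alone (-1.78) in ribosome-associated RNA, where Msantd1 was not tested.

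Whether the effect on each gene differed between fractions was asked with an interaction term over all 12 libraries. That fit takes the libraries as independent, although both fractions of a culture come from the same suspension. For Htt the difference (ribosome-associated minus total) was 0.42 (SE 0.53, 95% interval -0.76 to 1.59, adjusted p = 1 in edgeR's quasi-likelihood test). It turned to -0.26 (SE 0.34) without ribosome HTT-deleted replicate 1, the library with the most Htt left, and was 0.64 (SE 0.61) without total HTT-deleted replicate 1 and 0.36 without ribosome control replicate 1. None of the 8 genes passed (0.0% of 15574 genes did, 85 had an unadjusted p under 0.05, and DESeq2 and limma voom called 0). The differences for the 6 neighbours with ample counts ran from -0.37 for Grk4 (-1.02 to 0.28) to 0.25 for Rgs12 (-0.23 to 0.74). Without total HTT-deleted replicate 1 the same 6 ran from -0.26 for Grk4 to 0.11 for Rgs12, and without ribosome control replicate 1 from -0.33 for Grk4 to 0.22 for Rgs12. The interval for Msantd1 was -4.86 to 5.38, too wide to be read. With each culture as a block instead, the Htt difference was 0.293 (SE 0.285, 95% interval -0.368 to 0.954), and again none of the 8 genes passed.

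The fractions themselves were then compared within each genotype. In control cells Htt and Msantd1 were lower, and Lrpap1 higher, in ribosome-associated than in total RNA, so 3 of the 8 genes were called, against 25.0% of 14990 genes. The log2 ratio was -1.18 for Htt (SE 0.21, adjusted p = 0.0104), -3.10 for Msantd1 (SE 0.51, adjusted p = 0.00709) and 0.48 for Lrpap1 (SE 0.10, adjusted p = 0.017), all from edgeR's quasi-likelihood test (Benjamini-Hochberg). Per culture, Htt on ribosomes was 38.3, 43.9 and 49.5% of its total RNA level in CPM, and Lrpap1 147, 146 and 128%. For Msantd1 the figures were 23.7, 6.39 and 7.23%, from 6, 2 and 4 reads. CPM are relative within a library, so these are shares of each fraction and not of molecules bound.

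With the replicate number as a block, which links fractions of the same suspension, 3 more genes were called in controls among 50.2% of all genes. These were Rgs12 (-0.28, adjusted p = 0.00933), Grk4 (-0.44, adjusted p = 0.0229) and Add1 (-0.18, adjusted p = 0.0441, edgeR's quasi-likelihood test). Nop14 (-0.14, 95% interval -0.31 to 0.02) and Mfsd10 (-0.10, -0.27 to 0.06, both without the block) were not called. By groups that do not overlap, 6 of the 8 genes were lower on ribosomes (23.5% of all genes were) and Lrpap1 was higher (20.6% were), while Rgs12 overlapped. The Htt call was lost when all 12 libraries were fitted together (-1.18, adjusted p = 0.0699, edgeR's quasi-likelihood test, 10.6% of genes called), and that of Lrpap1 without total control replicate 1 (adjusted p = 0.0697) or replicate 3 (adjusted p = 0.0532). Without ribosome control replicate 1, which leans to short transcripts, Htt was at -1.11, Msantd1 at -3.76 and Lrpap1 at 0.53, and the other 5 ran from -0.46 for Grk4 to -0.09 for Mfsd10.

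In HTT-deleted cells 0 of the 7 genes tested were called, against 0.896% of 14627 genes (131 called, 1785 at an unadjusted p under 0.05, DESeq2 866, limma voom 150). Lrpap1 was again higher on ribosomes, at 135, 142 and 137% of total, with a log2 ratio of 0.46 (SE 0.14, adjusted p = 0.237, edgeR's quasi-likelihood test). Without total HTT-deleted replicate 1 it was 0.41 and passed (adjusted p = 0.0393, with 19.9% of genes called), and it passed with DESeq2 too (0.46, adjusted p = 0.0188, 5.92% called), with 2 factors (adjusted p = 0.0158, 20.4% called) and with all 12 libraries in 1 fit (adjusted p = 0.0377, 7.29% called). Grk4 was at 36.1, 66.0 and 75.4% of total, a log2 ratio of -0.81 (SE 0.28, adjusted p = 0.284). It passed with all 12 libraries in 1 fit (-0.80, adjusted p = 0.0424, edgeR's quasi-likelihood test) and was -0.70 without total HTT-deleted replicate 1. Lrpap1 and Grk4 were the only tested genes among the 8 whose groups did not overlap, against 8.89% higher and 11.6% lower over all genes. The Htt remaining in HTT-deleted cells was at 82.4, 47.6 and 37.0% of total, a log2 ratio of -0.77 (SE 0.46, 95% interval -1.86 to 0.32), -1.45 (SE 0.30) without ribosome HTT-deleted replicate 1 and -0.56 (SE 0.53) without total HTT-deleted replicate 1. Without that total library Nop14 was at -0.21, Rgs12 at -0.18, Add1 at -0.175 and Mfsd10 at -0.08. In pairs 2 and 3 alone with the block Htt was at -1.25 (SE 0.15, adjusted p = 6.82e-15), and Lrpap1, Grk4, Add1 and Nop14 were called too, among 55.6% of all genes, in a fit with 1 residual degree of freedom per gene.

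**Figure D4:**
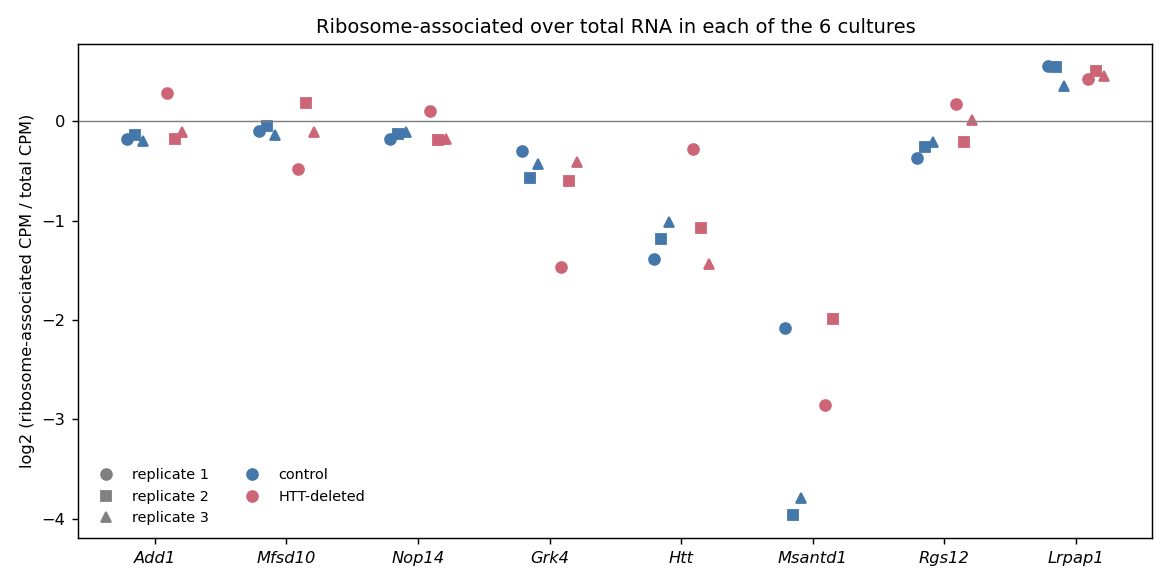
Log2 ratio of ribosome-associated to total CPM for each gene in each of the 6 cultures, control in blue and HTT-deleted in red, with a symbol per replicate. Lrpap1 lies above 0 in all 6 cultures, and Htt and Grk4 below 0 in all 6. Msantd1 rests on 0 to 6 ribosome-associated reads per library, and its HTT-deleted replicate 3, with 0 reads, has no point.

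To see which genes varied most like Htt, log2 CPM were centred within each fraction and correlated with Htt over the 12 libraries. Genes with provisional symbols and pseudogenes were left out of the ranking. Among the 12312 remaining genes at a mean of 1 CPM or more, the highest values were those of Avpr1a, a vasopressin receptor (r = 0.868), Lrp2, the endocytic receptor megalin (0.838), and Ugcg, which makes glucosylceramide (0.823). Msantd1, below 1 CPM, had 0.870, a value that includes ribosome-associated libraries with 0 to 6 Msantd1 reads each. Nop14 was at 0.566, Mfsd10 at 0.430, Grk4 at 0.270, Add1 at 0.198, Rgs12 at 0.113 and Lrpap1 at -0.006. These are descriptions over libraries that share cultures in pairs and the Cre contrast that moves Htt. A gap between control and HTT-deleted values in the top-ranked genes thus follows in part from how they were picked. Avpr1a itself was at 22.3 to 23.4 CPM in total control and 15.7 to 18.0 in total HTT-deleted RNA, and Ugcg at 221 to 230 and 145 to 177 CPM. Lrp2 was at 1.14 to 1.77 and 0.873 to 0.940 CPM. On ribosomes the control and HTT-deleted ranges overlapped for Avpr1a (25.2 to 27.7 and 19.8 to 25.3 CPM) and Lrp2 (0.85 to 1.15 and 0.405 to 1.05), and not for Ugcg (230.2 to 232.8 and 158 to 204).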

How the data were processed

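The 12 libraries hold total or ribosome-associated RNA. Stranded libraries were made with the NEBNext Ultra II Directional kit, per the labels. Reads were checked with FastQC, aligned with STAR 2.7.2b and counted with HTSeq 0.11.1 on GRCm38 (mm10), per the submitters' processing notes. Neither the strand setting nor the annotation release behind the counts is given in the sources used here. The authors deposited raw counts per Ensembl gene. Entries that name no gene were left out of library sizes and tests; reads in no feature were 2.64 to 7.73% per library and reads on several genes 2.09 to 2.68%. The authors deposited a second table with their own log2 fold changes, log2 CPM, likelihood ratio score, p-values and false discovery rates per fraction. Counts of rare genes are limited by depth, as for Msantd1, where 3 counts are 0.098 to 0.179 CPM.

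Counts were scaled by TMM, filtered with filterByExpr and tested with edgeR 4.0.16 (quasi-likelihood, robust) in R 4.3.3, with Benjamini-Hochberg adjustment over all genes and calls at an adjusted p under 0.05. The fits were HTT-deleted against control in each fraction, the interaction over 12 libraries, and ribosome-associated against total RNA in each genotype. Standard errors come from the fold change and F of each test, CPM from TMM-scaled library sizes, and log2 CPM from a prior count of 2. Scripts were tested on simulated counts. Alternatives were RLE and upper quartile scaling, no filter, 5 CPM in 3 libraries, DESeq2 1.42.0, limma voom 3.58.1, the replicate number as a block (also in pairs 2 and 3 only), 2 factors from residuals, 1 fit of all libraries, and leaving out each library. Same-numbered libraries deviated together (correlations 0.227 to 0.737 across genes), and fractions of a number share a suspension per the labels. The numbers were therefore taken as pairs in the block fits and in ratios per replicate or culture. The main fits had no such block and took the libraries as independent. All replicate pairs differed by more than sampling noise (chi-square per degree of freedom 32.1 to 162). Gene models are from a GRCm38 annotation, promoters from RefSeq. Named genes were the 8 members, the 3 genes of the wider list with the smallest p in each fraction, and the 3 most correlated with Htt. Sh3bp2 was named after its value in the authors' deposited table was seen. Members and lists were chosen with earlier results of these data known.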

Additional observations from a re-analysis of the deposited data

How the results depend on the processing

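Htt was lower in HTT-deleted cells in both fractions under all alternatives run, and kept its direction in 83 of 85 over the 5 comparisons. In total RNA it passed the threshold with no filter (-2.18), with DESeq2 (-2.16), in pairs 2 and 3 with the replicate block (-2.35) and with 2 factors (-2.18), and was -2.17 with the block in all 3 pairs. Its interaction turned to -0.17 in pairs 2 and 3 with the block and ran from -0.26 to 0.71 with a library left out. Ribosome-associated against total, Htt no longer passed in controls with all 12 libraries in 1 fit (-1.18), and passed in HTT-deleted cells in pairs 2 and 3 with the block (-1.25).

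Genes called over the whole table in total RNA (0) became 1 with no filter, 3 with DESeq2, 94 in pairs 2 and 3 with the block and 767 with 2 factors. In ribosome-associated RNA (0) they became 1 with DESeq2, 247 with the block, 14 in pairs 2 and 3 with the block and 305 with 2 factors. For ribosome-associated against total in controls (3745) they were 7524 with the block, 7445 in pairs 2 and 3 with the block, 7378 with 2 factors, 1646 with all 12 libraries and 1507 to 3251 with a library left out. In HTT-deleted cells (131) they were 208 with no filter, 86 at 5 CPM, 866 with DESeq2, 8333 in pairs 2 and 3 with the block, 2986 with 2 factors, 1135 with all 12 libraries and 0 to 3008 with a library left out.

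Of 559 alternatives for the neighbours, 497 kept direction and call, 20 gained a call, 2 lost it and 40 turned sign, all at values that passed no threshold. Grk4 in total RNA turned to -0.011 with no filter, -0.008 with limma voom, -0.006 with the block, -0.007 with 2 factors, -0.16 in pairs 2 and 3 with the block, -0.028 with all 12 libraries, and ran from -0.123 to 0.122 with a library left out. With a library left out, Lrpap1 ran from -0.088 to 0.035 in total and -0.114 to 0.022 in ribosome-associated RNA, and there Add1 from -0.042 to 0.017 and Rgs12 from -0.027 to 0.092. In the interaction, pairs 2 and 3 with the block gave Mfsd10 0.12, Nop14 -0.07 and Lrpap1 0.023. With a library left out the interaction was -0.13 to 0.066 for Mfsd10, -0.056 to 0.114 for Nop14, -0.65 to 1.27 for Msantd1 and -0.077 to 0.08 for Lrpap1. Ribosome-associated against total in HTT-deleted cells, Add1 turned to 0.008 and Rgs12 to 0.002 with no filter, and Mfsd10 to 0.029 in pairs 2 and 3 with the block. With a library left out, Add1 ran from -0.175 to 0.079 and Rgs12 from -0.18 to 0.11. The cause of these shifts was not tested. Depth limits Msantd1 on ribosomes, where 0 to 6 reads per library show no difference smaller than their counting intervals.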
